A study of Mus musculus with 10 samples.

Results

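The genes described here encode the proteins of the mitochondrial ribosome, taken as every gene of the deposited expression table whose name begins with Mrpl or Mrps followed by a digit. There are 76 such genes among the 17658 in the table. All 76 had a mean level of 1 FPKM or more and were tested, as were 10225 genes in all. FPKM counts sequenced fragments per kilobase of a gene's transcript and scales the count to the size of the library.

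The mitochondrial ribosome sits in the mitochondrial matrix and makes the few membrane proteins that the mitochondrial genome encodes, all of them subunits of the respiratory chain or of ATP synthase. Its ribosomal RNAs come from mitochondrial DNA, while every protein of its small subunit (Mrps genes) and large subunit (Mrpl genes) is encoded in the nucleus, made in the cytosol and imported. Many of these proteins descend from bacterial ribosomal proteins and others were added in mitochondria. In lymphocytes that leave rest, growth of the mitochondrial protein-making machinery accompanies the growth of the cell.

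The samples were B cells from spleen and lymph node of C57BL/6 mice aged 10 weeks, enriched by magnetic removal of other cells. The mice were Nr4a1+/+ (wild type) or Nr4a1-/- (knockout); Nr4a1 encodes Nur77, an orphan nuclear receptor induced by antigen receptor signals. Each genotype had 1 unstimulated library, lettered A, and 4 libraries, lettered A to D, of cells given 10 µg/mL anti-IgM for 2 hours, an antibody that crosslinks the B cell antigen receptor. The unstimulated libraries are labelled 0 hours, and no library is labelled as 2 hours without anti-IgM. The antibody and the 2 hours therefore cannot be told apart. Changes with anti-IgM below are differences between these conditions. No source used here says whether the letters stand for separate mice, so the p-values measure the spread between these libraries, which may be technical. In fits with unstimulated libraries that spread comes mostly or wholly from the stimulated ones. Each unstimulated library is assumed to vary like them.

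Summed FPKM over all genes were 557214 to 571784 in the stimulated libraries, and 595500 (labelled knockout) and 674961 (wild type) in the unstimulated ones, so the scale of the values differs between conditions. The number of reads per library is unknown. Nr4a1 stood at 126 FPKM in both unstimulated libraries, at 744 to 856 FPKM in the stimulated wild-type libraries and between 660 and 760 FPKM in the knockout-labelled ones. Transcript levels of the targeted gene therefore did not separate the genotypes, and directions between genotypes are between libraries as labelled. Of 7 B cell marker genes found, all were expressed, with summed levels of 4056 to 4273 FPKM before and 1716 to 1845 FPKM after anti-IgM. Blk was the 1 B cell marker that rose and the other 6 fell. The T cell genes Cd3e, Cd3d, Cd3g, Cd4, Cd8a and Cd8b1 had means under 1 FPKM before and after anti-IgM. Lck, the remaining T cell list gene found, stood at 17.5 and 25.0 FPKM before and at a mean of 55.95 FPKM after; it rose by 1.36 (adjusted p = 2.64e-10) and was higher by 0.48 (adjusted p = 3.15e-05) in the stimulated libraries labelled knockout. Its part in the results was not tested. Summed levels of 7 myeloid markers ran from 27.3 to 146 FPKM. Those of 5 erythroid markers before anti-IgM were 123 FPKM (wild type) and 39.9 FPKM (labelled knockout), against 7.79 to 66.4 FPKM after anti-IgM.

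Promoter windows from RefSeq (assembly GRCm38.p6, 250 bases before to 50 bases after a transcription start) matched 67 of the 76 genes by symbol, with 73 windows. The submitters' processing notes name mm10, the same build, for the expression values. Windows of 6 genes are shown, all 5′ to 3′ on the strand of the gene. They were chosen because the results below turn on them: the paralogs Mrps18a, Mrps18b and Mrps18c, which did not change in the same direction, Mrpl17, which had one of the largest rises, and Mrpl18 and Mrps11, which face a neighbouring gene whose change had the opposite sign on the deposited scale (for Mrps11 on that scale only). Capitals mark matches, on either strand, to GCATGCGC (core of the site of Nrf1, a regulator of nuclear genes for mitochondria), CCGGAAGT (site of ETS factors such as Gabpa), CACGTG (E-box, bound by Myc and Max) or AANATGGC (site of YY1). The windows lie at chr17:46110754-46111053 (+), chr17:35916391-35916690 (-), chr5:100798509-100798808 (+), chr7:105811038-105811337 (-), chr17:12916042-12916341 (-) and chr7:78782881-78783180 (+), in the order printed.
Mrps18a: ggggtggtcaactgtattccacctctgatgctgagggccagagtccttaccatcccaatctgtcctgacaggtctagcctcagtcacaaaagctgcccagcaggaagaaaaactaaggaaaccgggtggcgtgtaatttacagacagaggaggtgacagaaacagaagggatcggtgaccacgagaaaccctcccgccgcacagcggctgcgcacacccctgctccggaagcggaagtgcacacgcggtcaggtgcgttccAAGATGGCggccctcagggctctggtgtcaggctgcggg
Mrps18b: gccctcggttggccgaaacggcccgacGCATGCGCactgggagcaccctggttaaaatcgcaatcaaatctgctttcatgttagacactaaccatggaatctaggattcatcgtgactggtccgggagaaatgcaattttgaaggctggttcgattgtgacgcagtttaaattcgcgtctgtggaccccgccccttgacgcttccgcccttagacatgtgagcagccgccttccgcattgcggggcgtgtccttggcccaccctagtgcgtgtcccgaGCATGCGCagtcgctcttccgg
Mrps18c: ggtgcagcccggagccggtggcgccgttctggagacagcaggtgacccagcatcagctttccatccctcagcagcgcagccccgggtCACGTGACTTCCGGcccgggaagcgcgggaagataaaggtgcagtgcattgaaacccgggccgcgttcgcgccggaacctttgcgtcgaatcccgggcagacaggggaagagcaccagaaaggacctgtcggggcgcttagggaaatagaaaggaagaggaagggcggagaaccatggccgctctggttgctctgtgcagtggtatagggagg
Mrpl17: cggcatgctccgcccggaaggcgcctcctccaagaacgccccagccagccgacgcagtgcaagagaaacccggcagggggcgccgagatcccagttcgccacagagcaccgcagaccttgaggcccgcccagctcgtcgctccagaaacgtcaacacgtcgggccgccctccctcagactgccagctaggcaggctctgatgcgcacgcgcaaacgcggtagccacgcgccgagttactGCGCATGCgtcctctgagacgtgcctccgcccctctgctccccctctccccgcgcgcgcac
Mrpl18: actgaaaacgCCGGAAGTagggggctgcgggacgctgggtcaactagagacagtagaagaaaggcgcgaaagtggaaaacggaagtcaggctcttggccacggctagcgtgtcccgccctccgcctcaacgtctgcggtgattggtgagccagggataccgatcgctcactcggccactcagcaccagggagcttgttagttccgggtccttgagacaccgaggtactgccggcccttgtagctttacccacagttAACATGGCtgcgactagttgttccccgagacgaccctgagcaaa
Mrps11: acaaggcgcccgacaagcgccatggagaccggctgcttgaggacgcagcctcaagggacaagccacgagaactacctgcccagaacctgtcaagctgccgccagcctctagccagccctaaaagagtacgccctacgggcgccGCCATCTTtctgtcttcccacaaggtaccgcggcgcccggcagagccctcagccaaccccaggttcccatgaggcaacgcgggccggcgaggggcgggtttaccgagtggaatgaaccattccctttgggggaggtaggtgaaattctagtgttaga

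Capitals mark YY1 in Mrps18a and Mrps11, and the Nrf1 core at both ends of the Mrps18b window and once in Mrpl17. They also mark an E-box followed directly by an ETS match in Mrps18c, and an ETS and a YY1 match in Mrpl18. No match lay in the windows of Mrps2, Mrpl16 and Mrps6, which rose more than Mrpl17, or of Mrps16, which had the largest fall. Over all 73 windows the YY1 letters were present in 27.4%, against 9.66% of the 9472 windows of genes tested and 6.05% of all 32851 windows. They were found for 20 genes, of which 11 were called higher and 5 lower with anti-IgM among 29 and 17 called genes with a window. Of 23 matches in these genes, 15 (65.2%) lay after the transcription start, against 46.3% of the matches in all tested genes. These letters contain ATG, so a start codon followed by GC can also match them. Whether the matches are start codons was not tested. The Nrf1 core was present in 10.96% of the members' windows against 5.87% of those of genes tested and 2.71% of all, and the ETS letters in 16.4% against 9.38% and 3.89%. The E-box was present in 9.59% against 10.8% and 7.15%. The 7 windows with it belong to 5 of the 67 genes, and 3 of them are windows of Mrpl2. Without the first 150 bases of each window the E-box was in 2.74% against 6.96% of windows of genes tested. The YY1, Nrf1 and ETS shares stayed above those of genes tested in these shorter windows. The letters AAAGGTCA, which Nr4a1 binds as a monomer, were in none of the 73 windows, against 0.992% of windows of genes tested and 1.51% of all windows. These shares describe letters in short windows and were not tested.

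Levels of the 76 genes were mostly moderate. In each library between 56 and 61 of the 76 lay between 10 and 50 FPKM, and the median was 23.7 FPKM (wild type) and 23.9 FPKM (labelled knockout) before, against 27.0 to 28.3 FPKM after anti-IgM. The order of the genes changed little: mean levels of the 76 genes before and after anti-IgM had a Pearson r of 0.872 and a Spearman rho of 0.805 on the log2 scale, given as a description because genes are not replicates. The median mean level was 26.7 FPKM, against 13.98 FPKM over all genes tested.

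**Figure D1:**
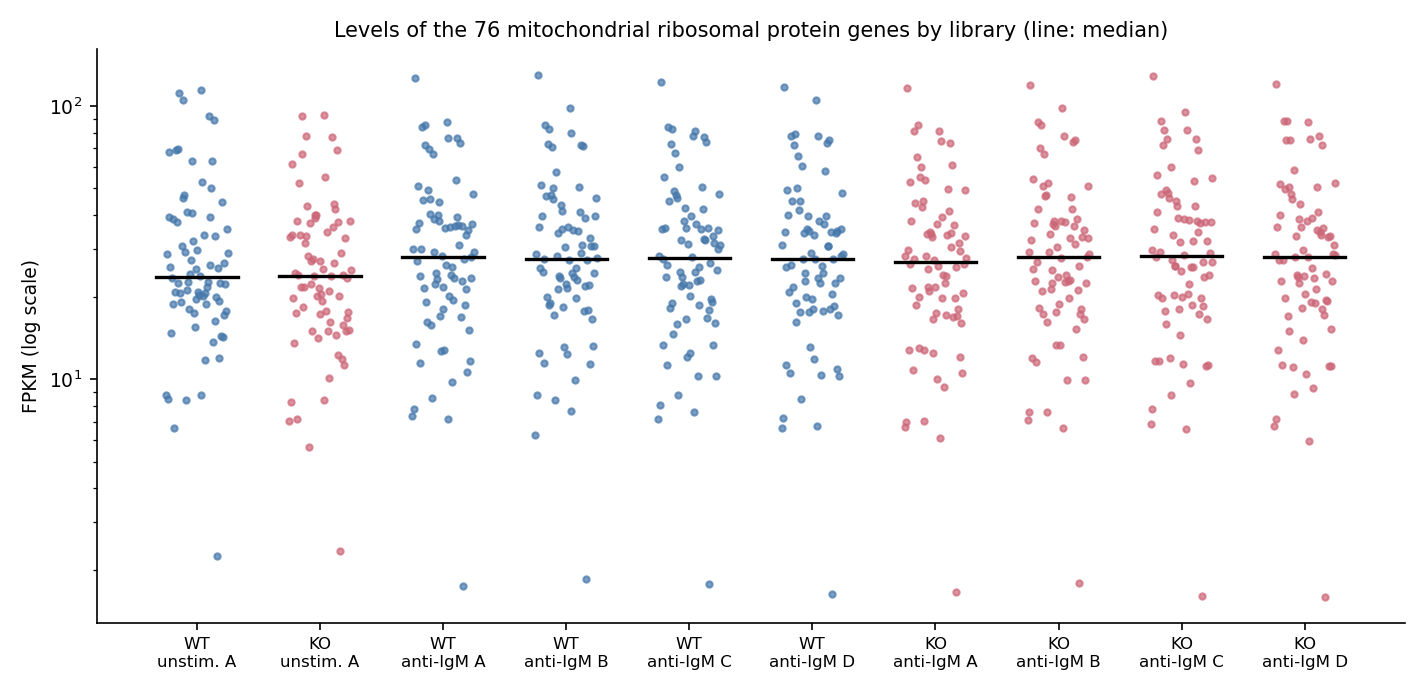
FPKM of each of the 76 genes (points, log axis) in each of the 10 libraries, wild type (WT) in blue and labelled knockout (KO) in red, with the median as a line. The medians of the 8 anti-IgM libraries, 27.0 to 28.3 FPKM, lie above the 2 unstimulated ones, and Mrps25 is the low point in every library.

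By mean over the 10 libraries, Mrpl12, a stalk protein that is present in several copies per ribosome, was highest at 111 FPKM. It was followed by Mrpl52 (93.8 FPKM), Mrpl24 (87.3 FPKM), Mrpl20 (79.7 FPKM) and Mrpl30 (73.5 FPKM), all of the large subunit. The lowest was the small-subunit gene Mrps25, at 1.83 FPKM, followed by Mrpl1 (7.05), Mrpl53 (7.16), Mrpl11 (7.81) and Mrpl35 (8.05 FPKM). In the GENCODE annotation of GRCm38, 58.2% of the exon bases of Mrps25 lie under a gene on the opposite strand, Nr2c2. All exon bases of Mrpl53 lie under the same-strand gene model Gm42688. How the authors' counting used strand is not given in the sources used here, so such values are uncertain. Over the set, 12 of 76 genes (15.8%) have at least 10% of their exon bases under an opposite-strand gene, against 11.1% of the tested protein-coding genes matched by name. Pseudogenes named after genes of the set exist for Mrpl23, Mrpl48 and Mrps36, whose values may share reads with them. Pseudogenes under other names were not looked for.

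Taken as a sum, the 76 genes held 0.364% of all FPKM in unstimulated wild-type cells and 0.370% in unstimulated cells labelled knockout. After anti-IgM the share was 0.450% ± 0.00528 (SD, n = 4) in wild type and, in those labelled knockout, 0.447% ± 0.00976 (SD, n = 4). All 8 stimulated libraries, at 0.434% to 0.457%, lay above both unstimulated libraries. On the deposited scale the sums themselves were closer, at 2454 and 2204 FPKM before and 2417 to 2612 FPKM after anti-IgM, and these ranges overlap. The proteins of the cytosolic ribosome, 81 genes, held 30.8% and 25.4% of all FPKM before and 21.9% to 23.4% after anti-IgM. In RNA from a pool of cells, fewer cells of a type and less RNA per cell cannot be told apart.

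With anti-IgM these genes changed in both directions. In a limma fit of log2(FPKM + 1) to the 10 libraries, adjusted for genotype, 34 of the 76 genes rose, 18 fell and 24 did not pass an adjusted p of 0.05 (Benjamini-Hochberg). Of all 10225 genes tested, 31.2% were called higher and 47.7% lower. The median log2 change was 0.058 over the 76 genes and -0.17 over all genes tested, and this shift of the whole scale bears on each change given here. The size of the change was modest, with a median of 0.29 against 0.498 over all genes tested. At a log2 change of at least 1, the calls were 4 higher (7.94% of all genes tested) and 1 lower (12.4% of all genes tested). All 8 stimulated libraries lay above both unstimulated ones for 30 genes and below both for 13, against 28.6% and 44.3% of all genes tested.

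The number of falls depended on the scale. Among called genes the share that rose was 65.4% on the deposited scale, 81.6% after rescaling to equal sums (TPM; 40 higher, 9 lower), 84.3% with median-of-ratios scaling (43 higher, 8 lower) and 70.0% after quantile normalization (35 higher, 15 lower). The same shares over all genes tested were 39.5%, 49.0%, 50.2% and 50.1%. The median of all genes tested moved to -0.031, -0.017 and -0.0022 under these scalings and the median of the 76 genes to 0.22, 0.23 and 0.11. Under all 4 scalings 33 genes were called higher and 8 lower. The direction of 5 called falls, Mrpl22, Mrpl45, Mrpl53, Mrps11 and Mrps25, turned positive under at least 1 scaling, at a log2 change of 0.11 at most and without passing the test.

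**Figure D2:**
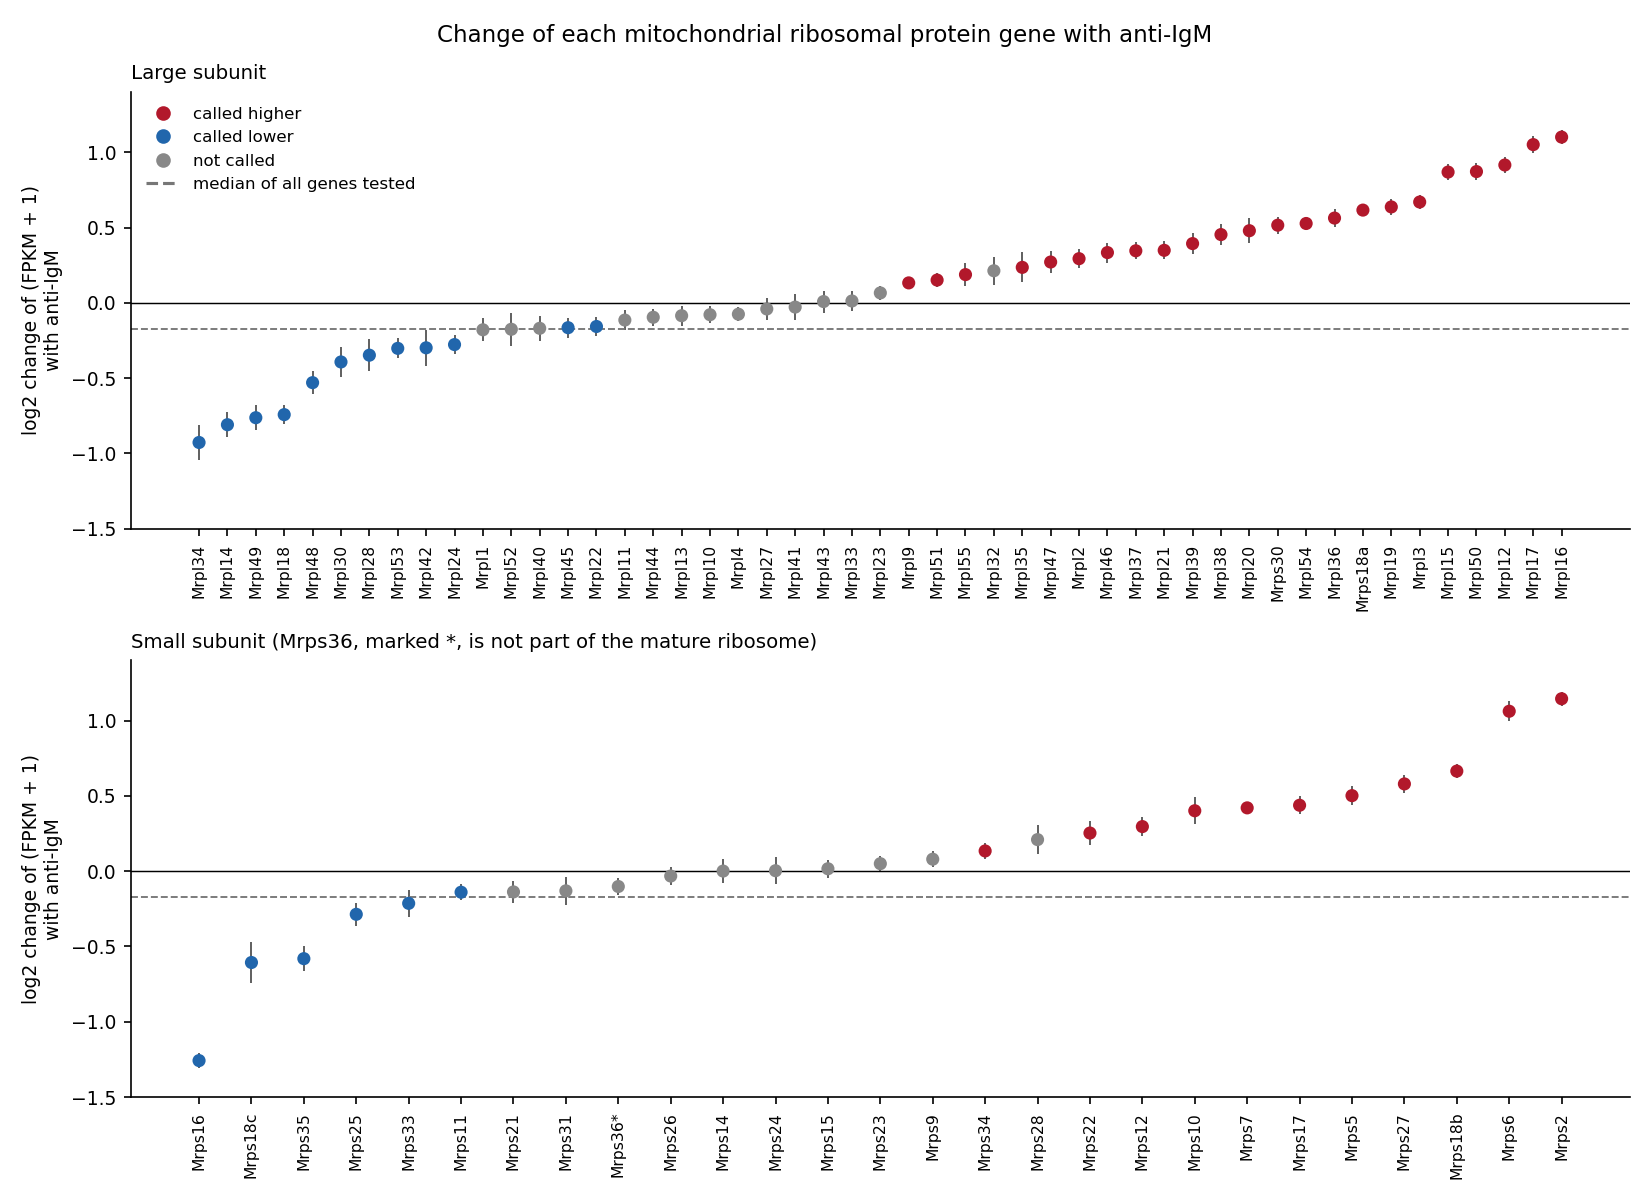
Fitted log2 change of (FPKM + 1) with anti-IgM for each gene of the large subunit (top) and small subunit (bottom), in order of size, with the standard error as a bar; red is called higher, blue called lower, grey not called, and the dashed line is the median of all genes tested. Changes run from -1.26 for Mrps16 to 1.14 for Mrps2, with 34 genes called higher and 18 lower.

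Both subunits held rises and falls. Of the 49 large-subunit genes 23 rose and 12 fell (median 0.066), and of the 26 small-subunit genes 11 rose and 6 fell (median 0.065). The remaining gene, Mrps36, whose product is a component of the oxoglutarate dehydrogenase complex rather than of the mature ribosome, did not pass (-0.10, adjusted p = 0.106). Of 46 genes with a bacterial counterpart 21 rose and 10 fell, with a median of 0.11, and of 30 genes found only in mitochondria 13 rose and 8 fell, with a median of -0.0097. No test compared these groups.

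The largest rise was that of Mrps2, a small-subunit protein with a bacterial counterpart (uS2) on chromosome 2 (chr2:28468066-28471178, + strand, GRCm38). Its unstimulated levels were 13.7 (wild type) and 14.5 FPKM (labelled knockout; the same order is used for each pair of unstimulated values below), and it stood at 30.7 to 34.6 FPKM (median 31.8) in the 8 stimulated libraries, all above both unstimulated ones. The mean rose 2.30-fold, a log2 change of 1.14 (SE 0.046, adjusted p = 1.57e-09). Mrps6, another small-subunit protein (bS6), went from 17.8 and 15.1 FPKM to 31.1 to 39.6 FPKM (median 35.4), 2.15-fold (log2 change 1.06). The gene models Slc5a3 and Gm49711 cover 36.1% of its exon bases on the same strand, so part of its signal cannot be assigned with certainty.

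In the large subunit the peptidyl transferase region, where peptide bonds are formed, is lined by RNA and touched by Mrpl2, Mrpl3, Mrpl16 and Mrpl27. Of these 4 genes 3 rose and 0 fell. Mrpl16 (chr19:11770391-11774960, + strand) stood at 23.4 and 24.6 FPKM before and 49.2 to 55.8 FPKM (median 52.4) after anti-IgM, with no overlap. That is 2.19-fold and a log2 change of 1.10 (SE 0.045, adjusted p = 2.02e-09). Mrpl3 rose by 0.67, from 30.7 and 31.6 to 47.1 to 55.0 FPKM, and Mrpl2 by 0.29. Mrpl27 did not pass (-0.040, adjusted p = 0.621).

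The polypeptide exit tunnel, through which the nascent chain reaches the inner membrane, has 8 genes in the set, and they moved apart. Mrpl17, at the mouth of the tunnel, rose from 18.9 and 17.4 FPKM to 35.9 to 40.8 FPKM (median 38.8), 2.13-fold and by 1.05 on the log2 scale (SE 0.055, adjusted p = 1.31e-08). Mrpl39 (0.39) and Mrpl47 (0.27) also rose, the latter with overlapping conditions (19.7 and 17.3 FPKM before, 19.65 to 25.0 after) and a change of 0.12 (adjusted p = 0.216) without the unstimulated library labelled knockout. Mrpl24 (-0.28), Mrpl45 (-0.16) and Mrpl22 (-0.16) fell on the deposited scale; under TPM rescaling the log2 change of Mrpl45 was -0.012, that of Mrpl22 -0.00023 and that of Mrpl24 -0.11, and none passed. Mrpl24 did not pass with median-of-ratios scaling either (-0.100), nor without the unstimulated wild-type library (-0.117, adjusted p = 0.0533). Mrpl45 tethers the ribosome to the inner membrane. Mrpl24 stood at 111.5 and 92.3 FPKM before and 79.1 to 88.1 FPKM after anti-IgM, and Rrnad1 covers 38.2% of its exon bases on the opposite strand. Mrpl23 and Mrpl44 did not pass.

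The stalk recruits translation factors to the ribosome through Mrpl10, Mrpl11 and Mrpl12. Only Mrpl12 of these 3 passed in the fit: it stood at 67.7 and 61.3 FPKM before and 116.5 to 130 FPKM (median 121) after anti-IgM, 1.90-fold and a log2 change of 0.92 (SE 0.050, adjusted p = 1.76e-08). Mrpl10, which anchors Mrpl12, stood at 28.7 and 33.3 FPKM before and 28.2 to 31.1 FPKM after (-0.079, adjusted p = 0.219). Mrpl11 at the base of the stalk stood at 8.50 and 8.24 FPKM before and 6.98 to 8.76 FPKM after (-0.11, adjusted p = 0.15). Both values turned positive with TPM rescaling and with median-of-ratios scaling, and quantile normalization gave Mrpl11 a change of 0.21 (adjusted p = 0.0188). Reads of Mrpl12 and Mrpl10 can overlap those of opposite-strand models on 15.2% and 14.1% of their exon bases.

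Along the path of the mRNA and tRNAs through the small subunit lie Mrps2, Mrps5, Mrps7, Mrps9, Mrps11 and Mrps12. Of these 6 genes 4 rose: Mrps2 (1.14), Mrps5 (0.502), Mrps7 (0.42) and Mrps12 (0.296). Mrps9 did not pass (0.080, adjusted p = 0.180). Mrps11 fell on the deposited scale (-0.14, adjusted p = 0.0297), but its change was 0.011 with TPM, 0.023 with median-of-ratios and 0.11 with quantile scaling. The central protuberance, where the large subunit contacts the small one, has 7 genes in the set, of which Mrpl38 (0.45), Mrpl46 (0.33) and Mrpl55 (0.19) rose and Mrpl18 (-0.74) and Mrpl48 (-0.53) fell. Mrpl40 and Mrpl52 did not pass.

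Other large rises were those of Mrpl50 (0.87), Mrpl15 (0.87), Mrpl19 (0.64) and Mrps27 (0.58), with adjusted p of 2.64e-06 at most. Mrpl50, a protein found only in mitochondria, went from 20.3 and 19.3 to 33.7 to 39.5 FPKM (median 37.5). Mrpl15 (uL15) went from 14.8 and 13.5 to 25.3 to 28.1 FPKM (median 26.8). Mrpl19 (bL19) went from 6.64 and 7.14 to 10.6 to 11.7 FPKM, and Gcfc2 covers 39.2% of its exon bases on the opposite strand. Mrps27, an RNA-binding small-subunit protein, reached 17.0 to 19.7 FPKM, 1.54-fold its mean before; 22.6% of its exon bases lie under an opposite-strand gene. In these 4 genes each stimulated library exceeded both unstimulated libraries. The other 13 rises ran from 0.133 (Mrpl9) to 0.563 (Mrpl36).

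**Figure D3:**
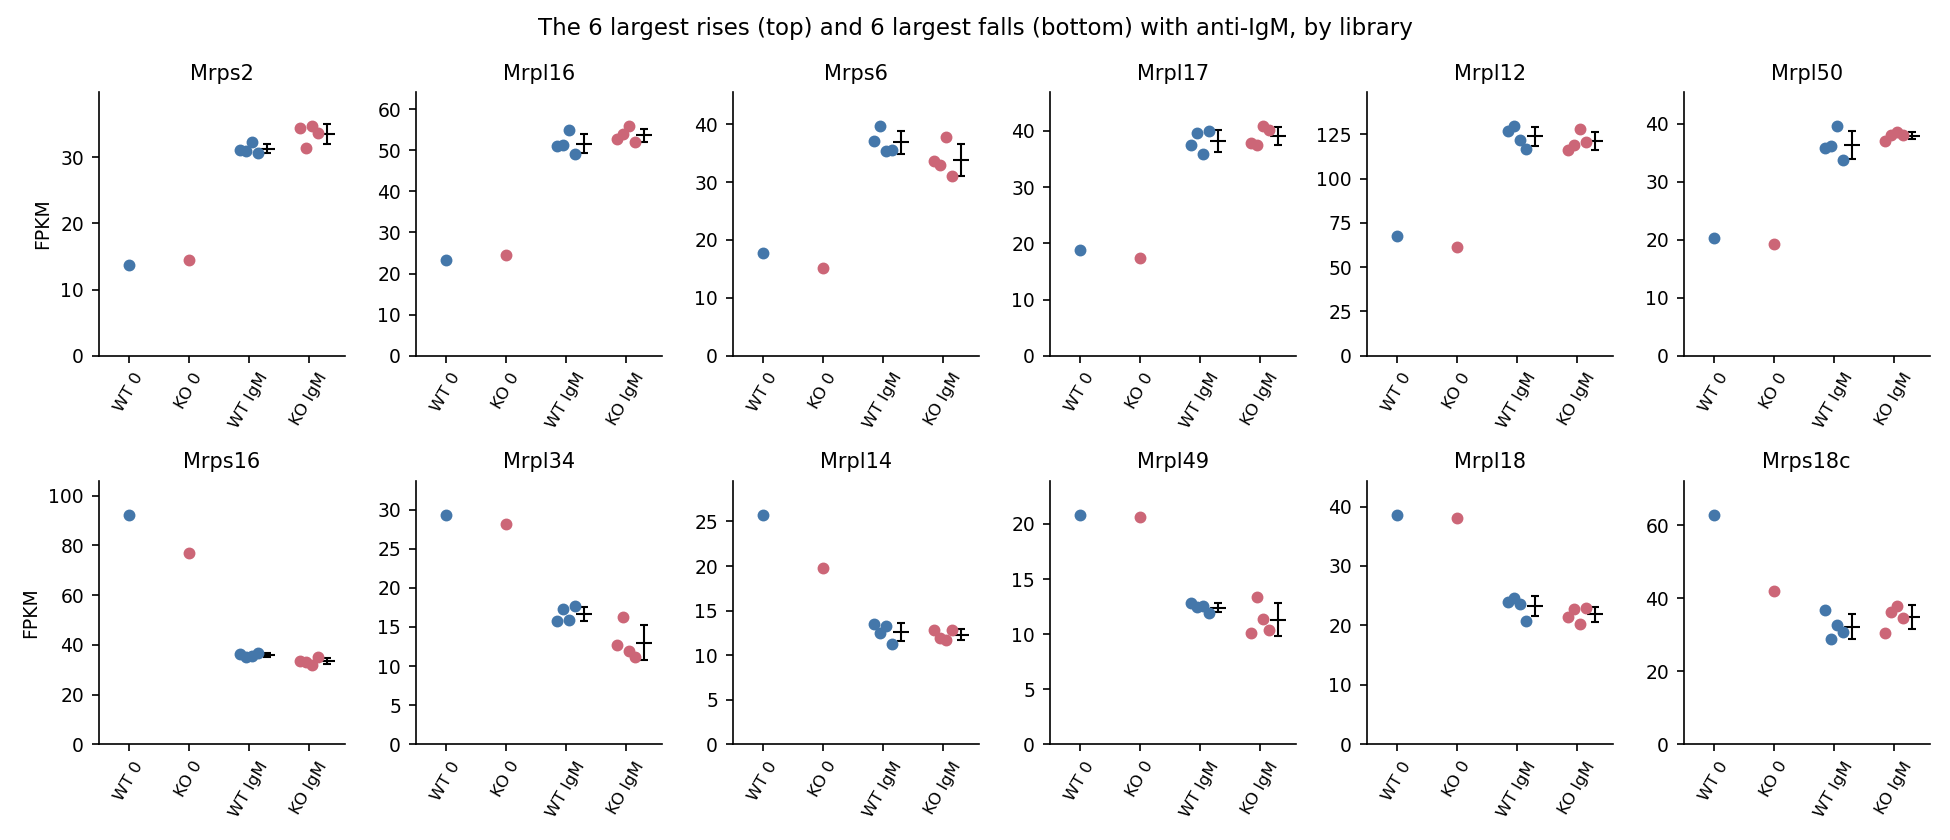
FPKM by library for the 6 largest rises (top) and 6 largest falls (bottom), with unstimulated cells marked 0 and anti-IgM cells IgM; blue is wild type (WT), red labelled knockout (KO), and the black mark is the mean ± SD of 4 libraries. In each of the 12 panels the 8 anti-IgM libraries lie on one side of both unstimulated libraries.

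The largest fall was that of Mrps16 (bS16; chr14:20389304-20393634, - strand), a core small-subunit protein. It was at 92.3 and 76.9 FPKM unstimulated, among the higher genes of the set, and at 32.0 to 36.9 FPKM (median 35.1) after anti-IgM. The level before was 2.44-fold that after, a log2 change of -1.26 (SE 0.048, adjusted p = 1.12e-09). So transcripts of Mrps16 and Mrps2, genes for proteins of the same subunit, moved by more than 1 log2 unit in opposite directions. All 8 stimulated libraries lay beyond both unstimulated ones in each case.

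Large-subunit genes made up most of the other falls, as they do of the set. The share called lower was 24.5% of large-subunit genes and 23.1% of small-subunit genes. Mrpl34 (bL34) went from 29.3 and 28.2 FPKM to 11.1 to 17.7 FPKM (median 15.9), a log2 change of -0.93 (SE 0.11, adjusted p = 1.75e-05). Mrpl14 (uL14), which lies at the interface of the subunits, went from 25.7 and 19.8 to 11.3 to 13.5 FPKM (-0.81). Mrpl49, a protein found only in mitochondria, went from 20.8 and 20.6 to 10.1 to 13.4 FPKM (-0.76). In all 3 every stimulated library lay below both unstimulated ones.

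Mrpl18 (uL18), a protein of the central protuberance, went from 38.6 and 38.1 to 20.3 to 24.7 FPKM (-0.74). Mrps35 fell by 0.58 on the log2 scale, Mrpl48 by 0.53 and Mrpl30 by 0.39. Smaller called falls were those of Mrpl28 (-0.35), Mrpl53 (-0.30) and Mrpl42 (-0.298). Mrpl53 was not called under any of the 3 other scalings and had a change of 0.022 with quantile normalization. Mrpl30 was not called with median-of-ratios scaling (-0.22). Leaving out the unstimulated wild-type library took Mrps18c to -0.27 and Mrpl30 to -0.17, neither called, and Mrpl42 to -0.019, also not called. Mrpl42 lost its call in 10 of 20 alternatives and Mrpl28 in 3, among them leaving out the unstimulated library labelled knockout. The remaining falls were Mrps25 (-0.29), in which Nr2c2 overlaps and which passed under none of the 3 other scalings, and Mrps33 (-0.21). Mrps33 did not pass with TPM (-0.054) or median-of-ratios scaling (-0.040), and its change without the unstimulated wild-type library was -0.012. The 24 genes that did not pass had changes from -0.18 (Mrpl1) to 0.21 (Mrpl32).

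The single unstimulated libraries carried some of these calls. Leaving out one or the other ended 17 of the 52 calls, 8 rises (Mrpl9, Mrpl35, Mrpl47, Mrpl51, Mrpl55, Mrps10, Mrps22 and Mrps34) and 9 falls (Mrpl22, Mrpl24, Mrpl28, Mrpl30, Mrpl42, Mrpl45, Mrps11, Mrps18c and Mrps33). It moved 15 values by more than 1.5 times, among them those of Mrpl20, Mrpl46 and Mrps12, which kept their calls. Without the unstimulated library labelled knockout Mrpl20 had 0.25 and Mrpl46 0.22, and without the wild-type one Mrps12 had 0.16.

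Mrps18a, Mrps18b and Mrps18c are paralogs whose products occupy different places: Mrps18a belongs to the large subunit in the mature ribosome, Mrps18b and Mrps18c to the small one. Mrps18a was at 26.3 and 26.6 FPKM before and 39.2 to 43.0 FPKM (median 41.0) after anti-IgM, and rose by 0.62 (SE 0.040, adjusted p = 7.71e-08). Mrps18b was at 49.98 and 43.8 FPKM before and 72.1 to 77.5 FPKM (median 74.8) after, and rose by 0.66 (SE 0.049, adjusted p = 2.18e-07). Mrps18c was at 62.8 and 42.0 FPKM before and 28.95 to 38.0 FPKM (median 33.6) after, and fell (-0.61, SE 0.14, adjusted p = 0.00165). Before anti-IgM Mrps18c was the highest of the 3 in the wild-type library and after it the lowest in every library. Gm16279 covers 59.1% of the exon bases of Mrps18b on the opposite strand and Gm43511 covers 18.5% of those of Mrps18c on the same strand.

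Many of these genes share a promoter region with a neighbour on the opposite strand. In the RefSeq start sites, 21 of 67 genes (31.3%) had a protein-coding gene pointing the other way within 500 bases, against 13.9% of 7335 tested genes; the difference in share was not tested. These 21 genes make 20 pairs, because Mrps11 and Mrpl46 face each other 42 bases apart on chromosome 7, both starts lying in the Mrps11 window printed above. In 12 pairs both genes were called with anti-IgM, 6 in the same and 6 in opposite directions. Over all tested genes 269 such pairs had both genes called, 53.5% in the same and 46.5% in opposite directions, so the split of the 12 is near the background. Mrpl46 stood at 25.3 and 21.6 FPKM before and 27.4 to 31.9 FPKM after (0.33), while Mrps11 stood at 11.8 and 10.1 FPKM before and 9.30 to 10.4 FPKM after (-0.14). The direction of Mrps11 was positive under the 3 other scalings, so this pair is opposite on the deposited scale only.

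Mrpl18 and Tcp1, a subunit of the cytosolic chaperonin, start 238 bases apart. Mrpl18 fell (-0.74) while Tcp1 rose by 0.64, from a mean of 149 to 232 FPKM. Mrpl50 rose (0.87) and its neighbour Zfp189 fell (-0.31), Mrps27 rose (0.58) and Ptcd2 fell (-0.33), Mrpl2 rose (0.29) and Klc4 fell (-0.97), and Mrpl47 rose (0.27) and Ndufb5, a subunit of respiratory complex I, fell (-0.47). Pairs in the same direction were Mrps7 with Gga3, Mrps12 with Sars2, Mrps18c with Helq, Mrpl30 with Mitd1, Mrpl48 with Rab6a and Mrpl49 with Fau. Sars2 encodes the mitochondrial seryl-tRNA synthetase and rose by 0.38 beside Mrps12 (0.296). Fau, a cytosolic ribosomal protein fused to a ubiquitin-like domain, fell (-0.67) beside Mrpl49 (-0.76).

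The responses of the genotypes, each 4 stimulated libraries against 1 unstimulated library, were set side by side; they share no library. Over the 76 genes 37 rose in both, 28 fell in both and 11 moved in opposite directions. Pearson r was 0.902 and Spearman rho 0.867 across the 76 genes, given as a description, since genes of a library share its scale. The response of Mrps2 was 1.13 in wild type against 1.16 in those labelled knockout, and that of Mrps16 was -1.34 against -1.18.

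**Figure D4:**
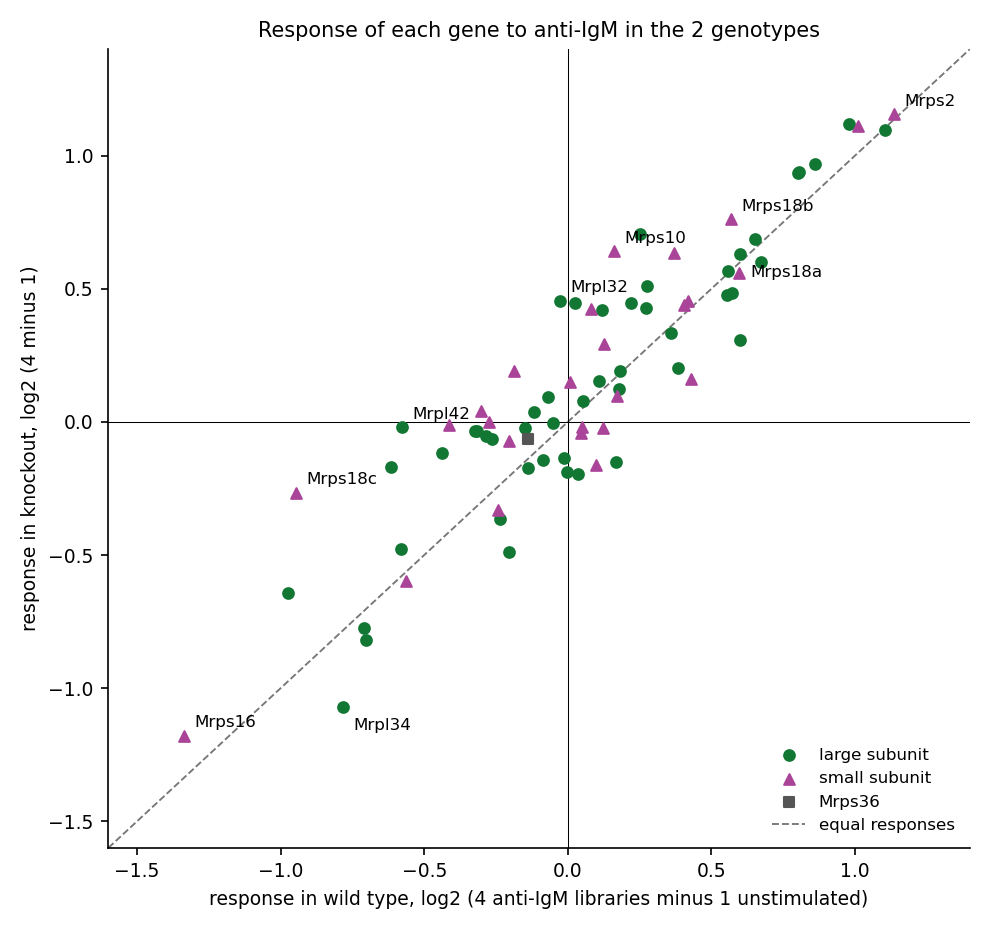
Response to anti-IgM of each gene, with wild type on the x axis and libraries labelled knockout on the y axis, as the mean of 4 stimulated libraries minus 1 unstimulated library in log2(FPKM + 1); circles are large-subunit genes, triangles small-subunit genes, the square Mrps36 and the dashed line equal responses. Of the 76 points 65 lie in the quadrants of equal sign, and Mrps18c and Mrpl42 lie well above the line.

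The difference in response between genotypes was fitted as an interaction over the 4 groups, in which each single unstimulated library is assumed to vary like the stimulated ones. It called 7 genes with a higher (less negative or more positive) response in the libraries labelled knockout, against 4.18% of all genes tested, and 1 with a lower one, Mrps26, against 14.7% of all genes tested. The 7 were Mrps18c (0.68), Mrpl42 (0.56), Mrpl32 (0.48), Mrps10 (0.48), Mrpl20 (0.45), Mrps14 (0.38) and Mrpl24 (0.32), with adjusted p from 0.00785 to 0.0474. Mrps26 had -0.26 (adjusted p = 0.0489). The count depended on the scale: 3 higher and 11 lower with TPM, 8 and 0 with median-of-ratios and 22 and 0 with quantile scaling.

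In the 8 genes called, the genotypes differed by -0.64 to 0.17 on the log2 scale unstimulated and by -0.085 to 0.11 after anti-IgM. Unstimulated, Mrps18c was at 62.8 FPKM in wild type and 42.0 in the library labelled knockout, Mrpl42 at 63.1 and 40.0, and Mrpl32 at 45.9 and 33.4 FPKM. Mrpl20 was at 69.1 and 52.5 FPKM and Mrps10 at 20.7 and 15.0 FPKM. In that pair 3 genes, Mrpl35, Mrpl42 and Mrps18c, were lower by at least 0.5 on the log2 scale in the library labelled knockout, against 2.76% of all genes tested, and 0 were higher by that much, against 4.31%. Over the 76 genes 51 were lower and 25 higher in the library labelled knockout, with a median of -0.12, against 0.067 over all genes tested. These values are on the deposited scale, whose sums differ between these libraries. As a share of all FPKM the 76 genes stood at 0.370% in the library labelled knockout and at 0.364% in wild type. The pair has no replicate check. The wild-type library of the pair also had the largest summed FPKM, the largest share of cytosolic ribosomal protein transcripts (30.8% against 25.4%) and the largest sum of erythroid markers (123 against 39.9 FPKM). The part of these values in the result was not tested.

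After anti-IgM few differences between the genotypes passed the test. In the comparison of 4 stimulated libraries labelled knockout with 4 wild-type libraries (limma over these 8 libraries), 1 of 76 genes was called higher and 0 lower, against 3.91% and 5.81% of all genes tested. Unadjusted p was under 0.05 for 10 of the 76 genes and for 2262 of the 10225. Differences ran from -0.35 to 0.13 on the log2 scale, with a median of -0.019 (-0.024 over all genes tested) and a median standard error of 0.0496. For 75 of the 76 genes the difference was under 0.2 in size. The 4 and 4 libraries did not overlap for 1 gene that was higher and 1 that was lower in those labelled knockout, against 5.96% and 9.57% of all genes tested.

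The gene called higher was Mrps7 (uS7), which binds the ribosomal RNA of the small-subunit head. Wild-type values (A, B, C, D) were 47.5, 46.1, 47.7 and 48.3 FPKM, and the same letters labelled knockout gave 49.3, 51.1, 54.4 and 52.2 FPKM, so the groups did not overlap. The means were 47.4 ± 0.903 and 51.8 ± 2.15 FPKM (SD, n = 4 each), a log2 difference of 0.12 (SE 0.033, adjusted p = 0.0452). The call was lost in 10 of 19 alternative settings, in which the adjusted p ran from 0.0257 to 0.121. Leaving out any one of the 4 wild-type libraries, or library B, C or D of those labelled knockout, was enough to lose it. Opposite-strand models cover 12.5% of its exon bases.

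The largest difference was that of Mrpl34 and did not pass. In wild type its values were 15.8, 17.3, 15.9 and 17.7 FPKM, in the order A to D, against 12.8, 16.3, 11.9 and 11.1 FPKM in those labelled knockout, so library B labelled knockout lay within the wild-type range. The log2 difference was -0.35 (SE 0.099, adjusted p = 0.0615), and it passed without that library (-0.451, adjusted p = 0.00231) and when only genes averaging 5 FPKM or more were tested (adjusted p = 0.0453). Mrpl53, chosen after its values were seen, was at 7.14, 7.67, 7.61 and 6.73 FPKM in wild type; the values labelled knockout were 6.12, 6.62, 6.58 and 5.93 FPKM. These groups did not overlap, and the difference did not pass (-0.18, SE 0.056, adjusted p = 0.0800).

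**Figure D5:**
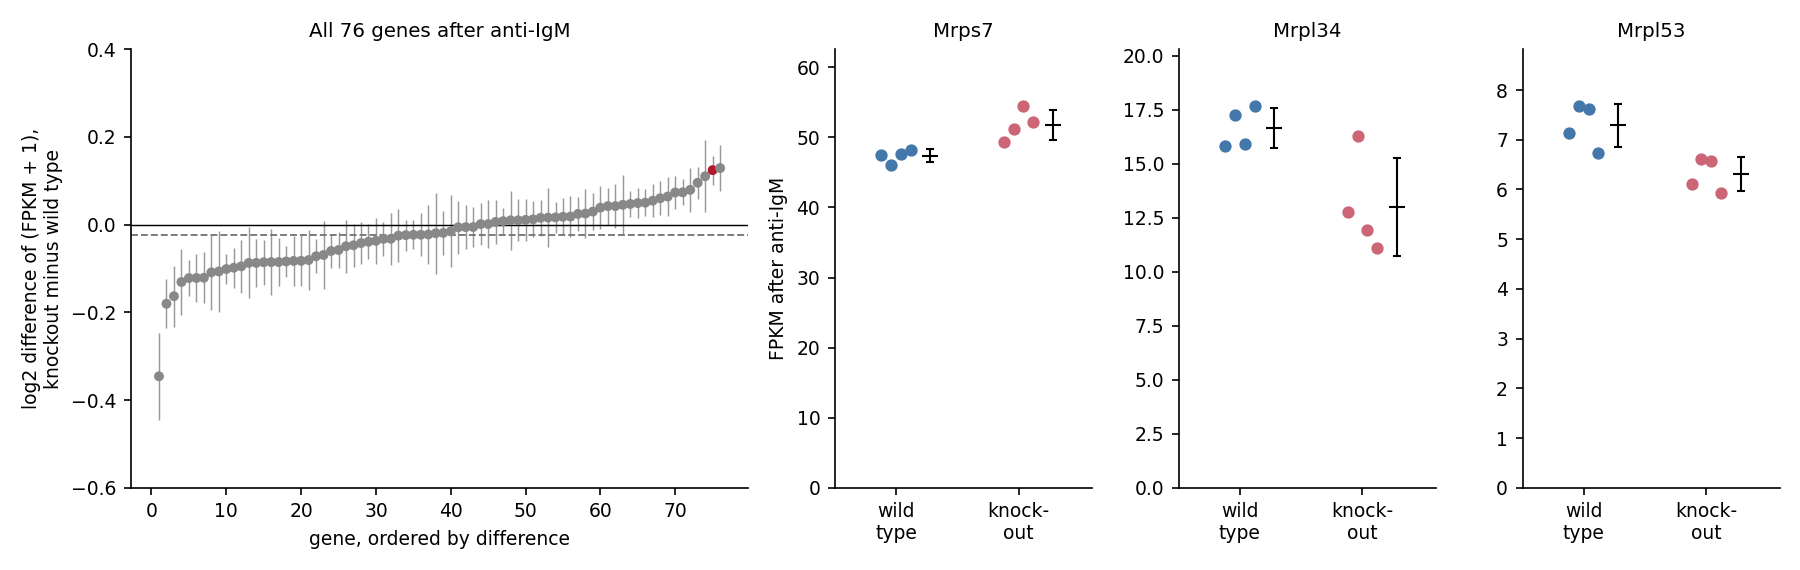
Left, log2 difference of (FPKM + 1) between the libraries labelled knockout and wild type after anti-IgM for the 76 genes in order of size, with standard errors, the called gene Mrps7 in red and the median of all genes tested dashed. Right, FPKM by library of Mrps7, Mrpl34 and Mrpl53 in wild type (blue) and labelled knockout (red), with the mean ± SD of 4 libraries; 75 of the 76 differences are under 0.2 in size.

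Mitochondrial ribosome proteins with other names were 7, of which 2 rose and 2 fell with anti-IgM. Ptcd3, a pentatricopeptide protein of the small subunit, rose from a mean of 40.7 to 67.3 FPKM (0.71), and Gadd45gip1 of the large subunit from 13.9 to 20.4 FPKM (0.53). Ict1, a peptidyl-tRNA hydrolase built into the large subunit, fell (-0.61), as did Dap3, a GTP-binding protein of the small subunit (-0.23). Chchd1 and Aurkaip1 of the small subunit did not pass (0.068 and -0.14), and both were called in the interaction (0.58 and 0.35), as 4.18% of all genes were in that direction. Interaction calls, which rest on 1 unstimulated library per genotype, numbered 67 higher and 0 lower among 80 cytosolic ribosomal protein genes, and 0 higher and 3 lower in both the translation factors (Tsfm, Gfm1, Tufm) and the regulators (Yy1, Pprc1, Myc) described below, where 14.7% of all genes tested were called lower. No gene of this list differed between genotypes after anti-IgM by the test.

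Of 24 tested genes for assembly of the mitochondrial ribosome and modification of its RNA, 8 rose (33.3%) and 6 fell. The background for this and the following lists is 31.2% higher and 47.7% lower over all genes tested, so the share that rose here is near it. Noa1, a GTPase needed for the small subunit, rose 3.14-fold from 8.92 FPKM (1.56), and the rRNA methyltransferase Rnmtl1 (1.12) and Wbscr16 (1.09) rose too. Ftsj2 (-1.12), Rpusd3 (-0.87) and Mettl17 (-0.76) fell. So transcripts for the methyltransferases Rnmtl1 and Ftsj2, which both act on the large-subunit RNA, moved in opposite directions. Rbfa (-0.24, adjusted p = 0.0484) and Ddx28 (-0.20, adjusted p = 0.0356) were lower in the libraries labelled knockout after anti-IgM, as were 5.81% of all genes tested.

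Translation factors of mitochondria, 15 genes, had 6 rises and 7 falls. The elongation factors Gfm1 (0.72) and Tufm (0.54), the latter from 45.9 to 66.8 FPKM, rose, and so did Lrpprc (0.82), which stabilises mitochondrial mRNAs. The release factor Mtrf1 (-1.09), the membrane insertase Oxa1l (-0.66) and the translational activator Taco1 (-0.54) fell. Of 17 mitochondrial tRNA synthetases 5 rose and 8 fell, with Yars2 (1.06), Mars2 (0.59) and Nars2 (0.47) among the rises and Cars2 (-0.83) and Vars2 (-0.69) among the falls. Lars2 (-0.596, adjusted p = 0.0302) and Ears2 (-0.21, adjusted p = 0.0248) were lower in the libraries labelled knockout after anti-IgM. In the unstimulated pair both were higher in the library labelled knockout, Lars2 at 830.7 against 614.8 FPKM and Ears2 at 6.74 against 6.28 FPKM. Of all genes tested, 5.81% were called lower in the libraries labelled knockout after anti-IgM. Lars2 had a mean of 608 FPKM, against a median of 6.01 FPKM for this list, and ran from 391.7 to 830.7 FPKM between libraries. The source of this level and spread was not tested.

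For mitochondrial DNA and its transcription 4 of 10 genes rose and 5 fell. Peo1, the replicative helicase, rose (0.77), as did Tfb2m (0.53) and Tefm (0.28), which act in initiation and elongation of transcription. Polg2, the accessory subunit of the DNA polymerase, fell from 8.29 to 2.30 FPKM (-1.51), and Mterf1b (-0.76), Mterf1a (-0.59) and the DNA-packaging factor Tfam (-0.41) fell too. Polrmt, the mitochondrial RNA polymerase, did not pass (0.12, adjusted p = 0.228).

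Of 9 tested regulators of nuclear genes for mitochondria 7 rose and 2 fell. Myc rose from a mean of 75.2 to 752 FPKM (3.33), the coactivator gene Pprc1 from 27.4 to 87.3 FPKM (1.65) and Gabpb1 from 30.9 to 60.9 FPKM (0.96). Gabpa (0.497) and Nrf1 (0.19) rose less. Gabpb2 fell (-0.88), and Esrra fell (-0.17) and was lower in the libraries labelled knockout (-0.18, adjusted p = 0.0484). The 81 cytosolic ribosomal protein genes, of which 80 were tested, stood differently in the same fit, with 2 higher and 69 lower and a median of -0.44, against 34 higher and 18 lower and a median of 0.058 for the mitochondrial ones. No test compared the lists.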

How the data were processed

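Polyadenylated RNA of 10 libraries was sequenced after stranded library preparation, as the labels' protocols state. The authors deposited FPKM per gene for 10 libraries; the submitters' processing notes name STAR 2.4, RSEM 1.2.14 and mm10. The depth per library is not given in the sources used here, so precision was judged from the spread between libraries. FPKM are not counts, and no count model was fitted. Values were taken as log2(FPKM + 1), which understates changes of low genes; those whose mean reached 1 FPKM entered limma 3.58.1 (R 4.3.3; lmFit and eBayes with trend), two-sided, with Benjamini-Hochberg adjustment over all 10225 genes, after tests on simulated data. Every column was assigned to 1 sample. Same-letter libraries of the genotypes did not deviate together (r from -0.122 to 0.0445 over 4 letters), so letters were not taken as pairs.

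Text names the 5 highest and 5 lowest members, the 12 largest called rises and falls, genotype and interaction calls, paralogs, site groups, and the largest called changes of each list. Members, lists and site groups were chosen with earlier results of these data known. Gene positions came from GENCODE M21, start sites and promoters from RefSeq, both GRCm38. Alternatives covered pseudocounts of 0.1 and 5, the filter, 3 scalings, limma without trend or with robust estimation, all 10 libraries in the genotype fit, the letter as a block, and leaving out each library. Older symbols were matched through RefSeq. The values of 1 gene that this rule names are not reported here.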

Additional observations from a re-analysis of the deposited data

Results flagged for a closer look

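In 152 groups of 4 stimulated libraries (76 genes in each genotype), 1 library stood far from the other 3 by Dixon's criterion. It was Mrpl20 in library A labelled knockout, at 81.19 FPKM; its 3 fellow libraries lay between 87.3 and 88.3 FPKM. By chance about 1 in 20 groups would be marked, which is 7.60 of these.

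The response to anti-IgM differed between genotypes by the interaction term for 8 genes. The difference, labelled knockout minus wild type on the log2 scale, was 0.68 for Mrps18c, 0.56 for Mrpl42, 0.48 for Mrpl32, 0.48 for Mrps10, 0.45 for Mrpl20, 0.38 for Mrps14, 0.32 for Mrpl24 and -0.26 for Mrps26. Each rests on 1 unstimulated library per genotype. Mrpl32, Mrps10 and Mrpl20 were called in all 18 alternative settings. Mrpl24 lost its call in 1, Mrps18c in 5, Mrps14 in 10, Mrpl42 in 11 and Mrps26 in 13 of the 18.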

How the results depend on the processing

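The number of genes called higher with anti-IgM stayed within 1.5 times of 34 in all alternatives run, including 27 with the replicate block, which also gave 14 lower. Called falls numbered 9 with TPM and 8 with median-of-ratios scaling. Leaving out 1 library gave 27 to 33 rises and 14 to 20 falls; the fewest rises came without the unstimulated library labelled knockout. Of 24 named called changes 19 kept their call in every alternative. The median change of the 76 genes was 0.22 with TPM, 0.23 with median-of-ratios and 0.11 with quantile scaling, and 0.049 to 0.096 with 1 library left out. The change of Mrpl53 was 0.022 with quantile scaling. Mrpl10 had 0.081 with TPM, 0.094 with median-of-ratios scaling and 0.037 without the unstimulated library labelled knockout, and -0.19 (adjusted p = 0.0106) without the unstimulated wild-type library. Mrpl11 had 0.033, 0.044 and 0.21 with TPM, median-of-ratios and quantile scaling.

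Between genotypes after anti-IgM, 0 genes were called higher without a filter, without an intensity trend and with the replicate block, and 0 to 1 with 1 library left out. At a mean of at least 5 FPKM 1 gene, Mrpl34, was called lower, and 0 to 2 were with 1 library left out; calls that arose only then were Mrpl49, Mrps12 and Mrpl55 lower and Mrps2 higher. The median difference was 0.015 with median-of-ratios and 0.0094 with quantile scaling, and -0.034 to -0.0028 with 1 library left out. Interaction calls numbered 4 without a filter, 14 with TPM, 22 with quantile scaling, 5 without trend and 4 with the replicate block. Leaving out 1 stimulated library gave 4 to 12; 4 came without library D of either genotype. Causes were not tested. The letters are not known to pair libraries. With 1 unstimulated library per genotype, neither could be left out of the interaction. Depth is unknown, so no counting error is given.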
